A study of Mus musculus with 2 samples.

Results

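The FGF and ERK feedback genes examined here were 10 genes that sit around fibroblast growth factor (FGF) signalling: the ligand Fgf4, the receptors Fgfr1 and Fgfr2, the ETS transcription factors Etv4 and Etv5, the inhibitors Spry2, Spry4 and Spred1, and the phosphatases Dusp4 and Dusp6. They were found on the arrays by the RefSeq accession of each gene probe, which gave 14 probes for the 10 genes, of 27410 probes for 20823 genes. All 14 probes were well above background on both arrays, as were probes of 16608 genes in all. None of the 10 genes was 2-fold apart between Baf53a- and Baf53b-expressing cells, where 0.102% of all measured genes were at least 2-fold higher with Baf53b and 0.0903% as much lower. For 7 of the 10 the log2 difference was under 0.1 in size, as it was for 52.2% of all measured genes, which is no result particular to these genes. Averaged over probes, Fgfr2 (0.24 higher in Baf53b-expressing cells) and Etv4 (0.20 lower) were farthest from 0, but the probes of Fgfr2 disagreed, with the dim one at 0.46 and the brighter one at 0.02.

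Baf53a and Baf53b are alternative subunits of the SWI/SNF (BAF) chromatin-remodeling complex. Baf53a is used in stem and progenitor cells, and Baf53b in neurons. RNA came from mouse embryonic stem (ES) cells derived from the E14 line, a single clone in which CRISPR/Cas9 deletions had disrupted both Baf53a alleles and a resistant Baf53a was expressed unless tetracycline (Tet) was added. The clone was transfected with the pCAGIP-Myc vector, which has the constitutive CAG promoter, carrying Baf53a or Baf53b and, 48 h later, given 1 μg/mL Tet for 6 days. Both groups thus shared the deletions, the Tet, the leukemia inhibitory factor (LIF) and the 15% serum of the medium, and differed by the transfected subunit. Each group was 1 array, labelled with Cy3, and no array of cells without a transfected subunit was analysed here. Both arrays shared a slide and a scan.

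FGF ligands bind receptor tyrosine kinases, which act through RAS, RAF and MEK on the kinase ERK. ERK in turn raises the transcription of genes that dampen the same pathway. These include the Sprouty and Spred inhibitors, which act above RAF, and several DUSP phosphatases, which remove the activating phosphates of ERK. In mouse ES cells Fgf4 is made by the cells themselves, and ERK signalling through it prepares them to leave self-renewal. The transcripts of Etv4, Etv5, Spry4 and Dusp6 are widely used as readouts of ERK activity.

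With 1 array per condition, there were no replicates, and the differences are given without tests. The values are Agilent processed signals, which are spot brightness in arbitrary units. Differences are Baf53b- minus Baf53a-expressing cells of the log2 signal, scaled so that the 75th percentile of either array is 0. This percentile lay at a signal of 1161 for Baf53a- and 1128 for Baf53b-expressing cells, so that a signal slightly lower on the second array can give a difference slightly above 0. In RNA from whole cultures, fewer cells with a transcript and less of it per cell cannot be told apart.

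The subunit exchange was examined first. Actl6b, which encodes Baf53b, was detected above background on the array of Baf53b-expressing cells alone, with a signal of 119 against 3.40, at least 14.5-fold higher. Actl6a, which encodes Baf53a, had signals of 3806 and 3600, a difference of -0.04. The Actl6a signal was thus no higher beyond this small difference in the cells transfected with Baf53a. On these arrays, only the Baf53b label was borne out by the RNA of its own gene. The paper detected both Myc-tagged proteins by Western blot, earlier in the Tet treatment, and reported that either subunit rescued the cells. Where in the transcript the Actl6a probe lies, and whether it reads the transfected coding region or the deleted alleles, is not given in the sources used here. By its brightest probe, each of the 7 ES cell markers was in the brightest of 5 equal groups of probes, with Zfp42 the brightest, and none was 0.2 or more apart.

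The 200 bases before the annotated start site are shown for the 3 members of the brightest group of probes that were matched to RefSeq windows, Fgf4, Etv5 and Dusp6, and for Fgfr2, which had the probe with the largest difference. They were copied from RefSeq for GRCm38.p6 and run 5′ to 3′ on the strand of the gene, which is plus for Fgf4 (chr7:144861186-144861385) and Dusp6 (chr10:99263031-99263230) and minus for both starts of Etv5 (chr16:22439571-22439770 and chr16:22438369-22438568) and for Fgfr2 (chr7:130266809-130267008). Capitals mark GC boxes (GGGCGG on either strand).
Fgf4: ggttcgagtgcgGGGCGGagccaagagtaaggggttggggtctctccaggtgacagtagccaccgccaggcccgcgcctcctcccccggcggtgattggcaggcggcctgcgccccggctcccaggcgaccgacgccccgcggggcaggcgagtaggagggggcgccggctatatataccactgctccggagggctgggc
Etv5, upstream start: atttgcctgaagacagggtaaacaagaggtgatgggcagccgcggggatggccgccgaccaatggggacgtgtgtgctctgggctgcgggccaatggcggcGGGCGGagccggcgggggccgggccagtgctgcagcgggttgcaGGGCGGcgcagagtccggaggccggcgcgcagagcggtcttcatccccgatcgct
Etv5, downstream start: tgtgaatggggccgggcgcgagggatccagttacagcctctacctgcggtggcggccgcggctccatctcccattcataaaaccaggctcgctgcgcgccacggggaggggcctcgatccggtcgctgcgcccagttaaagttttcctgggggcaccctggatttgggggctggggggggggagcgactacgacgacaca
Dusp6: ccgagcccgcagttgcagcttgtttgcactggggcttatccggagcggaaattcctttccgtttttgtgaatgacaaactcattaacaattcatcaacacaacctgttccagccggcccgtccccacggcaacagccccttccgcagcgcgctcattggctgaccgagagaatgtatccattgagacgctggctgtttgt
Fgfr2: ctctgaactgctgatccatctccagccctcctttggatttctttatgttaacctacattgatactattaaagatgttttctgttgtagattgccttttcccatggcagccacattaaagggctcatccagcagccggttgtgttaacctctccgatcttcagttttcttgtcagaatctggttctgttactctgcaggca
RefSeq windows of 250 bases before to 50 after a start were matched for 6 of the 10 genes, which are Fgf4, Fgfr2, Etv5 (2 windows), Spry2, Spred1 and Dusp6. Whole windows were 69.7% G or C for Fgf4, 74% and 60% for the upstream and downstream starts of Etv5, 57.3% for Dusp6 and 43.7% for Fgfr2, against a median of 52.7% over 32851 windows of mouse genes. The ratio of observed to expected CpG was 0.774, 0.938, 0.727, 0.802 and 0.282 in the same order, with a median of 0.384. GC boxes were found in the windows of Fgf4 (2), Spred1 (3) and the upstream start of Etv5 (3), and in 35.7% of all windows. The downstream start of Etv5, Dusp6, Spry2 and Fgfr2 held none. The ETS core CCGGAA, on either strand, was found in the Spry2 window only among the 6 genes, and in 14.9% of all windows. These matches describe the letters of the windows and are not sites shown to be used.

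**Figure D1:**
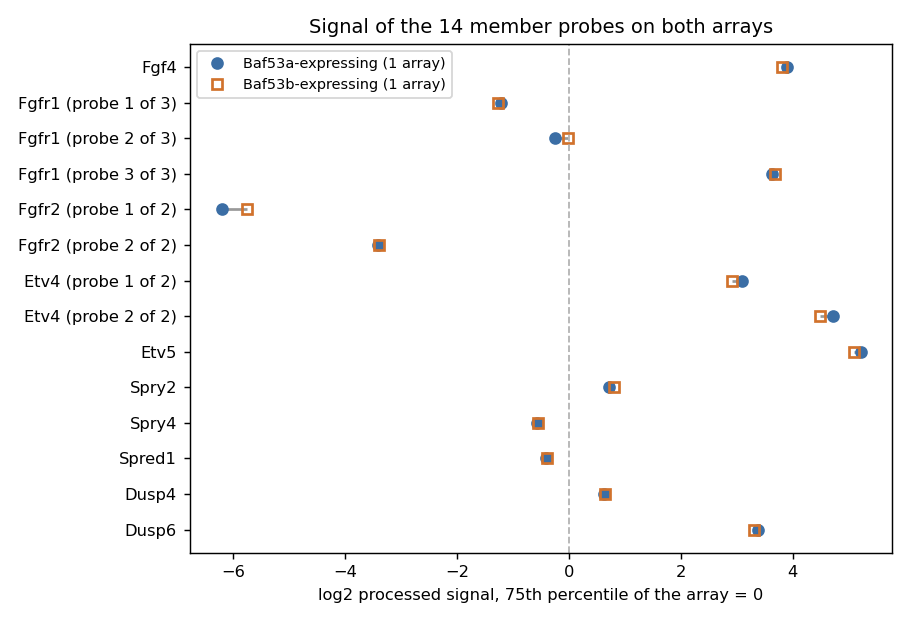
Log2 signal of the 14 probes of the 10 genes relative to the 75th percentile of the array (0), with a circle for Baf53a-expressing and a square for Baf53b-expressing cells, 1 array each. The points of a probe lie close together for nearly all probes, and the dim Fgfr2 probe shows the widest gap, 0.46.

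Fgf4, the ligand, had a signal of 17224 in the cells that expressed Baf53a and 15693 in those that expressed Baf53b, a difference of -0.09 (0.938-fold). Of all measured genes, 24.2% had a lower difference. Bright probes as a class read slightly low in Baf53b-expressing cells. In the brightest of the 5 groups, 5850 probes, the median difference was -0.06 and 75.8% of the probes were below 0, whereas the median of the dimmest group was 0.10. Relative to the median of its group, Fgf4 was at -0.03.

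The error of a single spot was taken from probes printed 10 times on each array. The SD of a difference between single spots was 0.274 in the dimmest group, 0.119, 0.0799 and 0.0664 in the next 3, and 0.0590 in the brightest. It covers the printing and reading of spots and not the culture, the transfection or the labelling. The error model of the scanner software gave 0.204 to 0.207 for the 13 member probes printed once, which was wider than the spot SD of their groups. For the dim Fgfr2 probe, a mean over several spots, it gave 0.109. Of the 14 member probes, 8 differed by more than the spot SD of their group, 6 did so after the median of the group was subtracted, and 3 differed by more than the software's error. Of the 29247 probes detected on both arrays, 52.7%, 48.4% and 19.2% did so in the same order, so the counts of member probes were near the background.

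**Figure D2:**
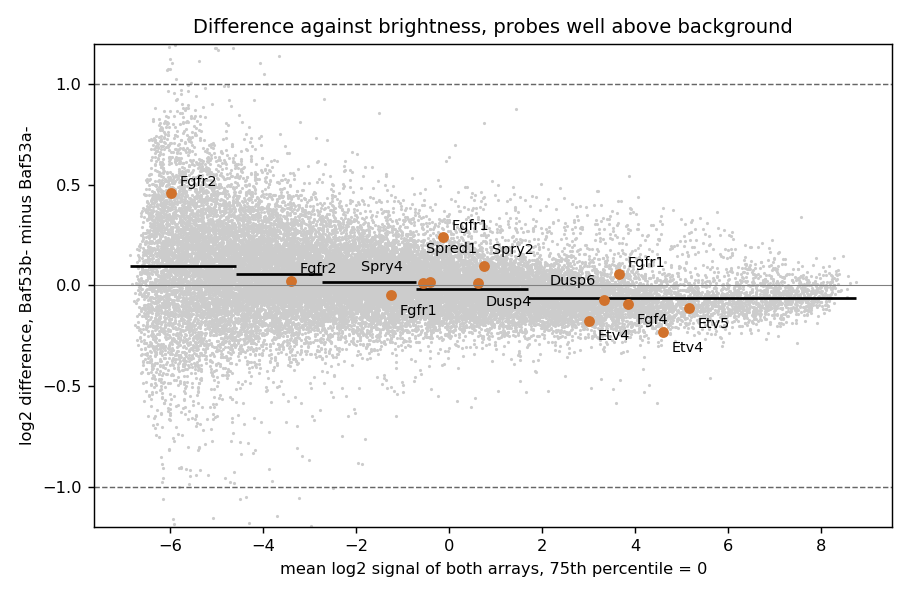
Difference in log2 signal, Baf53b- minus Baf53a-expressing cells, against the mean log2 signal of both arrays, for all probes well above background (grey; those beyond the axis are not drawn) and the 14 member probes (orange, named). Black lines are the medians of the 5 brightness groups, from 0.10 in the dimmest to -0.06 in the brightest, and dashed lines mark a 2-fold difference; all member probes lie between them.

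Fgfr1, the main FGF receptor of ES cells, was read by 3 probes. The brightest had signals of 14285 and 14424, a difference of 0.06. A second had 976 and 1119, a difference of 0.24, which was above the software's error, and 96.6% of the probes in its brightness group were lower. The third had 497 and 467, a difference of -0.05. The probes of Fgfr1 thus disagreed in direction, and their mean was 0.08 (1.06-fold).

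Fgfr2, the receptor prominent in primitive endoderm and trophoblast, was read by 2 probes that also disagreed. The brighter had signals of 109 and 108, a difference of 0.02. The dimmer had mean signals of 15.7 and 21.0, a difference of 0.46 (1.38-fold), where the lowest signals well above background on the arrays were 8.45 and 9.75. This dim probe was the only member probe printed 10 times. On each array 9 spots were used, since 1 on each was marked as an outlier, at 20.3 and 31.4. The spots of Baf53a-expressing cells ran from 11.6 through a median of 15.9 to 18.9, with an SD of 0.206 on the log2 scale. Those of Baf53b-expressing cells ran from 18.2 through 20.7 to 24.3, with an SD of 0.149. The ranges overlapped slightly, with 7 of the 9 spots in Baf53b-expressing cells above every used spot in Baf53a-expressing cells. From these spots the standard error of the mean difference was 0.0847, which holds for spots within this pair of arrays only. In its brightness group, where the median was 0.10, 89.0% of the probes were lower.

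**Figure D3:**
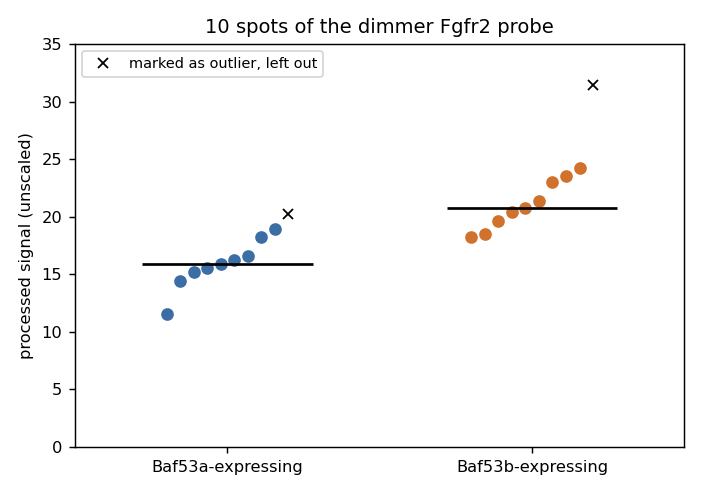
Signal of each of the 10 spots of the dim Fgfr2 probe on the array of Baf53a-expressing and of Baf53b-expressing cells; spots marked as outliers are crosses and were not used, and lines are the medians of the used spots. The used spots run from 11.6 to 18.9 with Baf53a and from 18.2 to 24.3 with Baf53b.

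Averaged over its probes, Fgfr2 was at 0.24 (1.18-fold), and it was the only member at least 0.2 higher in Baf53b-expressing cells. Over all measured genes, 2106 of 16608, or 12.7%, were at least 0.2 higher. The probe at 0.02 gave no such difference. Fgfr2 also fell short of 0.2 with centring on the median (0.19), cyclic loess (0.18), normexp background correction (0.17) and quantile normalization (0.15), and it was at 0.02 with the stricter filter or the brightest probe of each gene. Both probes were annotated to the same RefSeq transcript. Which other variants either probe reads is not given in the sources used here.

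Etv4 and Etv5 are ETS factors of the PEA3 family whose transcription follows FGF signalling. Both Etv4 probes were lower in Baf53b-expressing cells. Their signals were 30518 and 25239 for the brighter, a difference of -0.23, and 9876 and 8498 for the other, a difference of -0.17. Relative to the median of the brightest group, the probes were at -0.17 and -0.11, and 2.44% and 8.82% of the probes in it were lower. The mean was -0.20 (0.868-fold), which made Etv4 the only member at least 0.2 lower. Of all measured genes, 1138 were at least 0.2 lower, 6.85%. Under quantile normalization and cyclic loess, which level the trend with brightness, Etv4 was at -0.13 and -0.15. Etv5 had signals of 42983 and 38580, a difference of -0.11 (0.924-fold), or -0.05 relative to the median of its brightness group, which was within the spot SD of 0.0590.

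Spry2 and Spry4 encode Sprouty proteins, and Spred1 a related protein that brings neurofibromin to RAS. The signals of Spry2 were 1909 and 1980, a difference of 0.09 (1.07-fold), above the spot SD of 0.0664 in its brightness group and below the software's error. Spry4 had 781 and 764, a difference of 0.01. Spred1 had 869 and 855, a difference of 0.02. Spry4 and Spred1 were both within the spot SD, and their direction turned when the arrays were centred on the median (-0.04 and -0.03).

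Dusp4 encodes a nuclear phosphatase of MAP kinases and Dusp6 a cytoplasmic one that acts on ERK. Dusp4 had signals of 1795 and 1758, a difference of 0.01, which became -0.04 with centring on the median. Dusp6 had 12016 and 11102, a difference of -0.07 (0.951-fold), or -0.01 relative to the median of its brightness group. Neither exceeded the spot SD once that median was subtracted.

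Over the 10 genes, 6 differences were above 0 and 4 below, and the median was 0.01, where the median of all measured genes was 0.00 to 2 decimals and 49.1% were above 0. The 4 below 0, Fgf4, Etv4, Etv5 and Dusp6, all had their probes in the brightest group, where 5 of the 6 member probes were below 0, near the 75.8% of all probes in it. The same 5 were also below the median of the group, which by definition splits its probes evenly. Of these, Dusp6 was only -0.01 from that median. The remaining probe of that group was Fgfr1, at 0.06. None of the 10 was 2-fold apart, where 17 of all measured genes (0.102%) were higher by that much and 15 (0.0903%) were lower by it. With centring on the median, the member median was -0.04, and Spry4, Spred1 and Dusp4 also fell below 0. The median of all measured genes was then -0.05.

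The rest of the pathway was described by lists of genes. Of 22 FGF family genes in the list of ligands, 19 were measured. Fgf12, Fgf16 and Fgf21 were not well above background on either array. Fgf11, Fgf12, Fgf13 and Fgf14 belong to the family but act inside the cell and are not ligands of the receptors. The counts and the median of the list include those of them that were measured. Of the 19 measured, 7 were at least 0.2 higher in Baf53b-expressing cells and none as much lower, with a median of 0.12 and 15 above 0. Among the 7 was Fgf23 (0.29), read by a probe in the brightest group. Its other probe was detected in Baf53a-expressing cells alone. The median was 0.02 under the stricter filter, which drops dim probes. Over all measured genes, 12.7% were at least 0.2 higher, 6.85% at least 0.2 lower and 49.1% above 0, which are the values to set beside each list. Of the 19 genes, 13 lay in the 2 dimmest groups, whose medians were 0.10 and 0.05. In these, 35.5% and 21.2% of all probes were at least 0.2 higher. The highest was Fgf6, with signals of 21.4 and 36.3, a difference of 0.80. Fgf13 had 17.5 and 24.9 (0.55). Fgf5, a marker of the primed epiblast, had 66.7 and 91.7 (0.50). Fgf6 and Fgf13 lay in the dimmest group, where the spot SD was 0.274, and Fgf5 in the next, where it was 0.119. At the other end were Fgf11 (-0.19), Fgf4 (-0.09) and Fgf3 (-0.06).

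All 7 receptors and co-receptors were measured, with a median of 0.08, 2 at least 0.2 higher and none as much lower. Kl, which encodes the co-receptor Klotho, had signals of 11.3 and 14.4 near the lowest measurable signal, a difference of 0.39. It was followed by Fgfr2 (0.24) and Fgfr3 (0.11). Fgfr4 (0.04), Klb (-0.03) and Fgfrl1 (-0.14), a receptor without a kinase domain, were the lowest.

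The 21 genes of the cascade from adaptors through RAS and RAF to ERK and its kinase targets had a median of -0.01, with 10 above 0. That median changed sign with quantile normalization, cyclic loess and normexp (0.02 in each), and with the weaker detection flag and no filter (0.01 in both). None was at least 0.2 higher and 1 was at least 0.2 lower. That gene was Sos1, an exchange factor that activates RAS, with dim signals of 18.1 and 12.8 and a difference of -0.46. Gab1 (0.20, just under the 0.2 limit), Rps6ka3 (0.17) and Sos2 (0.16) were highest, and after Sos1 came Rps6ka1 (-0.11) and Map2k2 (-0.06).

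Of 11 Sprouty, Spred and other inhibitors, 9 were measured and Spry3 and Spred3 were at background. The median was 0.01, or -0.04 with centring on the median, and 6 were above 0 as reported. Spred2 was the 1 gene at least 0.2 lower, with signals of 660 and 529 and a difference of -0.28, while its relative Spred1 was at 0.02. Nf1, which encodes neurofibromin, was at -0.17 and Il17rd at -0.07. Rasa1, another brake on RAS, was at 0.17, Spry1 at 0.11 and Spry2 at 0.09.

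The 10 MAP kinase phosphatases, some of which act mainly on MAP kinases other than ERK, had a median of 0.07. Of the 10, 8 were above 0, 3 at least 0.2 higher and 1 as much lower. Those higher were Dusp8 (0.32), Dusp10 (0.23) and Dusp5 (0.22), whose signals ranged from 40.2 to 214. Dusp7 was lower, at -0.21, followed by Dusp6 (-0.07) and Dusp4 (0.01). None of the phosphatases at least 0.2 apart was among the 10 genes studied here.

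Of 9 ETS factors, 5 were above 0 and the median was 0.03, with 1 at least 0.2 higher and 2 as much lower. That median was -0.03 with centring on the median, the stricter filter or the brightest probe of each gene. Ets1 was at 0.23, Elk4 at 0.17 and Elk3 at 0.11. The lowest were Etv1, also of the PEA3 family (-0.22), Etv4 and Erf, a repressor that ERK controls (-0.20, just inside the 0.2 limit, with signals of 42745 and 36231). The probes of Etv1 differed, with the bright one at -0.03 and the dim one at -0.41.

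The 7 other transcripts that follow ERK activity had a median of 0.01, with 4 above 0. That median was -0.04 with centring on the median and 0.06 with quantile normalization or cyclic loess. Among the 7, Fosl1 was the only one at least 0.2 apart, with signals of 115 and 137 and a difference of 0.29. Ier3 was at 0.10, Epha4 at 0.07, Epha2 at -0.01, Ccnd1 at -0.08 and the immediate early gene Egr1 at -0.11.

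**Figure D4:**
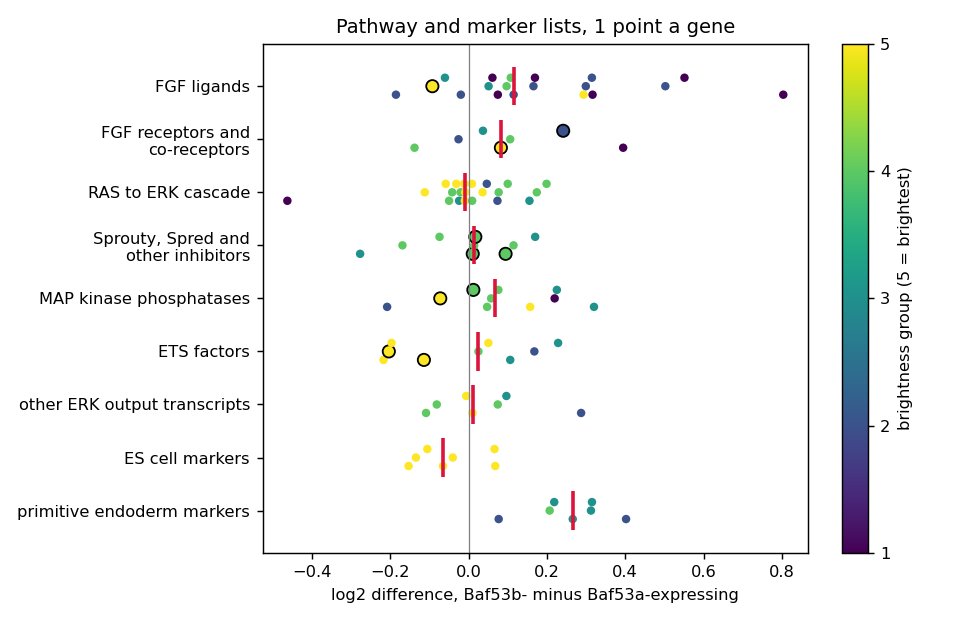
Difference in log2 signal, Baf53b- minus Baf53a-expressing cells, of each measured gene in the pathway lists and the ES cell and primitive endoderm marker lists, with 1 point per gene, coloured by its brightness group, the median of each list as a red line and the 10 genes outlined. The medians of the pathway lists run from -0.01 for the cascade to 0.12 for the ligands as reported. The ligand median is 0.02 with a stricter filter on dim probes. The cascade median runs from -0.06 with centring on the median to 0.02 with quantile normalization. No gene of the lists shown reaches a 2-fold difference.

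Markers of other cell types were read beside these genes, and their part in the values above was not tested. Summed signals are over all probes of all genes in a list, those at background included, and are scaled to the array of Baf53a-expressing cells. All 7 primitive endoderm markers were above 0 (median 0.27, 6 at least 0.2 higher), where 12.7% of all measured genes were at least 0.2 higher and 49.1% above 0. Their summed signal was 3124 and 3745, with Gata6 the brightest. They lay in brightness groups 2 to 4, whose medians were 0.05, 0.02 and -0.02 and in which 21.2%, 10.8% and 4.84% of the probes were at least 0.2 higher. All 5 measured trophoblast markers were above 0 (median 0.25, 3 at least 0.2 higher), with Krt8 the brightest, while Elf5 was at background. The 5 measured lay in brightness groups 3 to 5, whose medians were 0.02, -0.02 and -0.06. In these groups, 10.8%, 4.84% and 2.94% of the probes were at least 0.2 higher. The sums over the 6 genes were 7462 and 9396. The 7 ES cell markers had a median of -0.07 and sums of 202893 and 188829. They were all in the brightest group, whose median was -0.06. The 4 primed epiblast markers (sums 21273 and 22124, Dnmt3b brightest, median 0.01) had 1 gene at least 0.2 higher, Fgf5. Of the 4 mesoderm markers (sums over all 4 of 258 and 243, Tbx6 brightest), 3 were measured, with a median of -0.13, and Mixl1 was at background. None of the 3 measured was above 0, and Mesp1 was at least 0.2 lower (-0.21), as were 6.85% of all measured genes. The 4 neural markers (sums 10614 and 9666, Tubb3 brightest) had a median of -0.02. Of the 5 fibroblast markers (sums over all 5 of 1372 and 1317, Thy1 brightest), 3 were measured, with a median of 0.04. Of these, only Col1a2 was at least 0.2 apart, at 0.22. Postn was at background. Col3a1 was detected in Baf53b-expressing cells alone, with signals of 8.73 and 11.3, at least 1.33-fold higher. Both signals were near the lowest well above background on the arrays, 8.45 and 9.75.

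**Figure D5:**
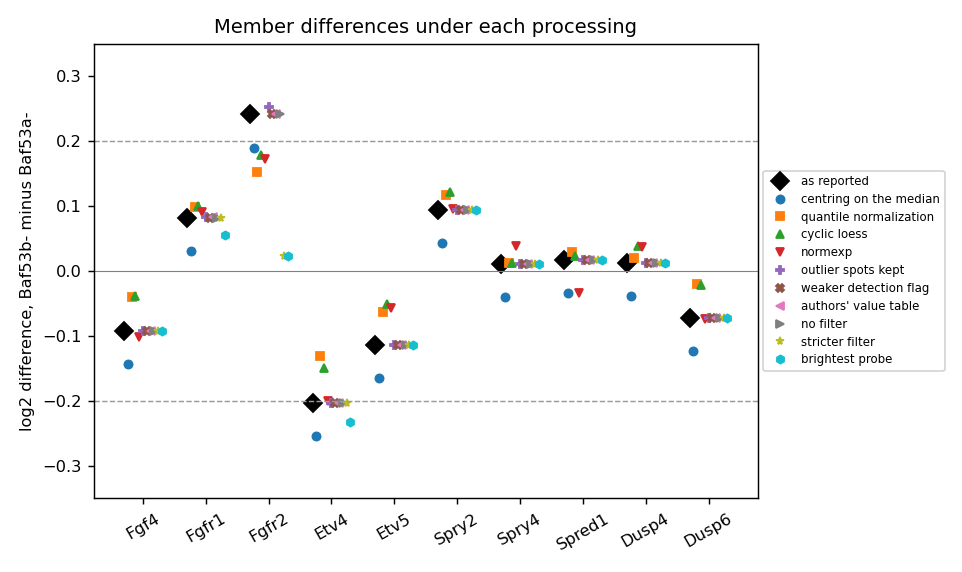
Difference of each of the 10 genes, in log2 units, as reported and under the 10 other ways of processing, with 1 mark per setting. Dashed lines mark 0.2 in either direction. Fgfr2 spans 0.02 to 0.25 and Etv4 -0.25 to -0.13, and no gene reaches a 2-fold difference.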

How the data were processed

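Total RNA, 1 sample of each kind of cell, was labelled with Cy3 and hybridised to Whole Mouse Genome arrays. The authors extracted the images with Agilent Feature Extraction 11.0.1.1, per the labels, and deposited the intensity of each spot (processed signal: background-subtracted and spatially detrended, not normalized between arrays), on a design annotated on mm9. They also deposited a table in which each value is a ratio, found by comparison to equal the processed signal divided by 1 number per array (1160 and 1126) within 0.1% for all 30479 values per array.

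Each array held 43020 gene spots of 39429 probes. Spots marked as outliers (173 and 143) were left out, the log2 signals of a probe's spots were averaged, and each array was shifted to put its 75th percentile at 0. A probe counted as detected (well above background) where 50% or more of its spots were so flagged, 75.2% and 76.4% of probes. No spot was saturated. A gene is the mean of its probes well above background on both arrays. A probe detected on 1 array only was given a bound: its signal over the higher of the dim spot and the lowest signal well above background. Names came from RefSeq accessions in a table of GRCm38.p6, used for names only. Brightness groups are 5 equal groups of probes by mean level, and a gene takes the group of its brightest probe. The number of arrays, 1 per condition, limits the precision.

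The members and lists were chosen with earlier results of these data known. Named were all members with every probe, and the 3 highest and 3 lowest genes of each pathway list. Values of some single genes are left out. Alternatives were centring on the median, quantile normalization, cyclic loess, normexp background correction (offset 50), outlier spots kept, a weaker detection flag, the authors' value table, no filter, a stricter filter and the brightest probe per gene. Python 3.11.15, numpy 2.4.6, pandas 2.3.3, R 4.3.3 and limma 3.58.1 were used, and the steps were tested on simulated data.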

Additional observations from a re-analysis of the deposited data

How the results depend on the processing

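No paired analysis was possible because each condition had 1 array, and no replicate could be left out. No member was 2-fold apart under any of the 10 alternatives, and 2 of the 10 were past a limit of 0.2 on the log2 scale. The 1 member at least 0.2 higher, Fgfr2, became 0 with centring on the median (0.19), quantile normalization (0.15), cyclic loess (0.18), normexp (0.17), and the stricter filter and the brightest probe, which keep only its other probe (0.02). The 1 member at least 0.2 lower, Etv4, became 0 with quantile normalization (-0.13) and cyclic loess (-0.15). Etv5 was at -0.05 under cyclic loess. Spry4, Dusp4 and Spred1 changed sign with centring (-0.04, -0.04 and -0.03), and Spred1 with normexp (-0.03). The member median ran from -0.04 with centring, which moved all genes down, to 0.02 with cyclic loess. Among the pathway lists, the ligand median ran from 0.02 with the stricter filter to 0.12, and was 0.06 with centring. The cascade median ran from -0.06 with centring to 0.02 with quantile normalization. The ETS median was below 0 with centring, the stricter filter and the brightest probe (-0.03 in each), and those of the Sprouty and Spred list and the other ERK outputs were -0.04 with centring. The receptor and phosphatase medians stayed above 0 under all 10. Of all genes, the 17 at least 2-fold higher became 226 with a weaker detection flag, 344 with no filter, and 0 with normexp or the stricter filter. The 15 at least 2-fold lower became 110, 182, 0 and 0 in that order, and 24 with quantile normalization. Differences of dim probes, such as Fgfr2, Fgf6, Fgf13, Kl and Sos1, rest on signals close to background.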

Other observations

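Probes of the same gene disagreed at several genes of the pathway. Fgf23, a circulating FGF, had a bright probe at 14780 and 17597, a difference of 0.29, whereas its other probe was detected on the array of Baf53a-expressing cells alone, where it was higher by at least 1.59-fold. Fgf14 had a probe at 0.17 on signals of 58.1 and 63.3, and another detected on that array alone, higher by at least 1.38-fold. Elk3 was read by probes at 0.42, -0.07 and -0.03, of which the first was the dimmest. The probes of Rps6ka3, a kinase that ERK activates, were at 0.34 and 0.01. These genes were picked after their values were seen. Beyond the RefSeq transcript used to name each probe, the transcripts read are not given in the sources used here.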
